A study of Mus musculus with 38 samples.

Results

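Chromatin accessibility was compared between terminally exhausted (Tterm) and progenitor exhausted (Tprog) OT-1 CD8+ T cells from tumours of aged mice. The comparison rests on 8 of the series' 38 ATAC-seq libraries, 6 of Tterm and 2 of Tprog, taken from a table of 21 libraries by the labels for age, receptor and subset. All 8 came from B16-OVA tumours, a melanoma line made to express ovalbumin, taken 15 days after inoculation. The mice were C57BL/6J, labelled wild type and 64-68 weeks old, and the labels do not say whether that age is the one of the OT-1 donor or of its host. OT-1 cells carry a transgenic T cell receptor against an ovalbumin peptide, so every library describes cells of a single specificity. Tprog cells were sorted as Slamf6+ Tim-3- and Tterm cells as Slamf6- Tim-3+, in pools of 5000 to 50000 cells. Tprog 1 and 2 and Tterm 6 were sequenced in batch 6, and Tterm 1 to 5 in the batches labelled 4 & 5. Used beside them were young OT-1 libraries (10-12 weeks; 7 Tterm and 2 Tprog), 2 libraries of naive CD8+ T cells from the spleens of aged mice, and 3 Tterm and 3 Tprog libraries of aged mice's own (endogenous) tumour CD8+ T cells.

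ATAC-seq uses the Tn5 transposase to cut open chromatin, so the reads in a peak measure how accessible that stretch of DNA is. Under lasting antigen, CD8+ T cells pass from a progenitor state, kept by TCF-1 (encoded by Tcf7) and able to divide and renew, to a terminal state marked by the inhibitory receptor Tim-3 (encoded by Havcr2). That passage is known to close enhancers of memory genes such as Ccr7 and Satb1, and to open enhancers of inhibitory receptors and effector genes. Open chromatin permits transcription but is not a measure of it, and in a pool of cells a share of open cells cannot be told apart from the openness of each.

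The promoters of 5 genes with a peak that differed between the subsets, in calls made both with and without Tprog 1, are printed as examples, taken from 23 named genes with such a peak over a promoter in the RefSeq table. The first 3 lay under peaks higher in Tterm and the last 2 under peaks lower in Tterm. Each runs 5′ to 3′ on the gene's strand, from 250 bases before to 50 bases after the annotated start, in RefSeq's GRCm38.p6 (mm10). Capitals mark matches, on either strand, to the letters CTTTGA (TCF/LEF), TGANTCA (AP-1), TGTGGT (RUNX), AAAGGTCA (NR4A) and GGTGTGA (T-box).
Havcr2 (chr11:46454681-46454980, plus strand; Tim-3; AP-1 and RUNX letters): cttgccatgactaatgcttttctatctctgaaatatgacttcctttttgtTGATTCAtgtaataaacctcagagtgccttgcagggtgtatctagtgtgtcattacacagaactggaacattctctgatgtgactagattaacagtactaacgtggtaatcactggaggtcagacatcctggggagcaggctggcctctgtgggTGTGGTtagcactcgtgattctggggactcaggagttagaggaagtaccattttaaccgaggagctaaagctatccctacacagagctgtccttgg
Entpd1 (chr19:40659520-40659819, plus strand; CD39; RUNX letters read on the other strand): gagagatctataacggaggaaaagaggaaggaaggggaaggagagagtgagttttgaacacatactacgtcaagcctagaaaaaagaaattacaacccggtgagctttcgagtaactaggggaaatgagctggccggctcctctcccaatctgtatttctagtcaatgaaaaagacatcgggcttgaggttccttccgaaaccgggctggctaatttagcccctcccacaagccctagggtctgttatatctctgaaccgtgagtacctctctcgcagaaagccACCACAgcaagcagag
Srxn1 (chr2:152105274-152105573, plus strand; sulfiredoxin; AP-1 letters at 2 places): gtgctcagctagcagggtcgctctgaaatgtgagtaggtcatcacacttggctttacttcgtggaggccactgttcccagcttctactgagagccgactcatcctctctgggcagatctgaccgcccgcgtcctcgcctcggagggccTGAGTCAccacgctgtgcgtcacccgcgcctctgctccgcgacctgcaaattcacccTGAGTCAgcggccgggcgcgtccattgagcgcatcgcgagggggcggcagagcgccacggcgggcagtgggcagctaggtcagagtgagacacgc
Trat1 (chr16:48772013-48772312, minus strand; T-box, TCF/LEF and RUNX letters): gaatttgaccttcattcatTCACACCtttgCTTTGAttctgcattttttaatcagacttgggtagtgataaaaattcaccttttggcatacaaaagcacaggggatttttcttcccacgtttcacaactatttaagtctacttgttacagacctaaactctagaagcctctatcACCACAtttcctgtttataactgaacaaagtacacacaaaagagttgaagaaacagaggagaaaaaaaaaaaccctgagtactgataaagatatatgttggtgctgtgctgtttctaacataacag
Tcf7 (chr11:52282546-52282845, minus strand; TCF-1; NR4A letters read on the other strand): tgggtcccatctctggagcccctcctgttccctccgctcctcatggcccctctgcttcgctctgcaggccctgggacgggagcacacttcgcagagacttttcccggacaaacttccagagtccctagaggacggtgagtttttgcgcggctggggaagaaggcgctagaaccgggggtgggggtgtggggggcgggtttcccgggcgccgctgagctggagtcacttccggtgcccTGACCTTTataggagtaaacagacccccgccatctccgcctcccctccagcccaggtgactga

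A match is a run of letters and shows no binding. Each printed promoter held a match, but others of the 23 candidates, among them Id3, Ccser1 and Pdcd1, held none. The RUNX letters stood in 30.2% of the 202 promoters touched by a peak called higher in Tterm with and without Tprog 1, in 19.0% of the 142 touched by such a lower peak, and in 16.8% of all 32851 promoters in the RefSeq table. The AP-1 letters stood in 16.8%, 9.15% and 7.81% of the same 3 sets. The TCF/LEF letters stood in 12.4% of the promoters under higher peaks, in 20.4% of those under lower peaks and in 5257 of the 32851 in all. Among the 14965 promoters touched by any tested peak, the shares were 13.3% for RUNX, 5.24% for AP-1 and 11.8% for TCF/LEF, so the TCF/LEF share under higher peaks was close to that of tested promoters. These shares are descriptions, without a test, and the sets differ in base composition, with a median GC content of 51.0% under higher peaks, 59.0% under lower peaks, 52.7% in all promoters and 61.0% in those touched by a tested peak.

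One library stood apart from the rest before any comparison. Across the 84091 peaks tested, log2 values of Tprog 1 correlated with the other 7 aged OT-1 libraries at a Pearson r of 0.711 to 0.759. With Tprog 2 its r was only 0.731. Tprog 2, in contrast, reached 0.866 to 0.893 with the Tterm libraries and 0.899 to 0.920 with young Tprog. Tprog 1 was also the shallowest of the 8, with 6802732 reads in peaks against 8294077 to 27724769, and had the smallest share of reads at promoters, 30.7% against 33.7 to 39.0%. It was at exactly 0 in 2171 of the 84091 peaks tested, and in 54 of these each of the other 7 libraries had 30 or more normalized reads. Counts are therefore given also without Tprog 1, which leaves a single Tprog library in the comparison, assumed to vary like the other groups. The label check was read at the lowest-p peak of each gene, chosen from this same comparison. In both Tprog libraries the Havcr2 peak was less open, and the Slamf6 and Tcf7 peaks more open, than in any Tterm library. Of all tested peaks near these genes, 5 of 8 at Havcr2 were called higher in Tterm. At Slamf6 4 of 10 and at Tcf7 6 of 18 were called lower.

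Of 169323 peaks, the 84091 with a mean of 10 or more normalized reads were tested. Tterm cells had 9477 peaks higher (11.3% of those tested) and 2850 lower (3.39%) than Tprog cells, by limma on log2(normalized reads + 1) with a term for batch 6 and a Benjamini-Hochberg adjusted p under 0.05. Without Tprog 1 the counts were 4156 and 2564. A total of 3237 peaks were called higher in both fits (3.85%) and 1559 were called lower in both (1.85%). The median log2 difference was 1.82 for the former and -1.60 for the latter. Unless stated otherwise, OT-1 log2 differences are estimates of the fit that includes Tprog 1, after its batch 6 term. They can differ from the gap between the printed reads. The values of the 6 Tterm and 2 Tprog libraries did not overlap at 3057 of the 3237 higher peaks (94.4%) and at 1138 of the 1559 lower ones (73.0%), against 10.9% and 7.78% of all peaks tested.

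The balance of higher and lower calls moved with the scaling and with Tprog 1. Higher peaks made up 76.9% of the calls, but 61.8% without Tprog 1, 61.6% with DESeq2, 57.9% after quantile scaling, 52.0% with edgeR and 48.7% with every library brought to the same total. The median difference over all peaks was 0.15 in the deposited scaling and -0.25 with equal totals. In the deposited scaling, peaks with a mean of 10 to 20 reads had a median difference of -0.36 and those of 300 or more a median of 0.67. Without Tprog 1 these medians were -0.19 and 0.18. Fitted alone, with no other group to share the spread, the 8 libraries gave only 144 higher and 59 lower peaks.

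Of all calls, 15.8% of the higher and 8.14% of the lower peaks were within 1000 bp of either end of a protein-coding gene, against 18.5% of all peaks tested. Of the peaks called in both fits the shares were 8.31% and 7.70%. Inside a gene lay 53.8% and 52.0% of the latter, against 45.6% of all peaks.

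At the lowest-p peaks of the genes that define the sort, accessibility went with the gate. The Havcr2 peak, at chr11:46452461-46455538 over the promoter shown above, held 819 to 1249 normalized reads in the Tterm libraries, with a median of 1043, and 175 and 203 in Tprog 1 and 2. All 6 Tterm libraries were above both Tprog libraries, by a log2 difference of 2.54 (SE 0.28, limma adjusted p = 2.07e-06). The Slamf6 peak at chr1:171965284-171966671, 16326 bp from the gene, held 19.6 to 46.1 reads in Tterm (median 36.5) and 82.6 and 177 in Tprog. Slamf6 encodes the homotypic receptor used in the gate, and its log2 difference was -1.81 (SE 0.40, limma adjusted p = 0.00316). Inside Tcf7, the peak at chr11:52268061-52268974 held 39.8 to 62.0 reads in Tterm (median 56.6) and 207 and 339 in Tprog. Its log2 difference was -2.21 (SE 0.28, limma adjusted p = 9.40e-06), and the aged naive libraries, at 307 and 332, lay near the Tprog values. The larger peak over the Tcf7 promoter fell by 1.25 on the log2 scale in Tterm (limma adjusted p = 0.00229).

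**Figure D1:**
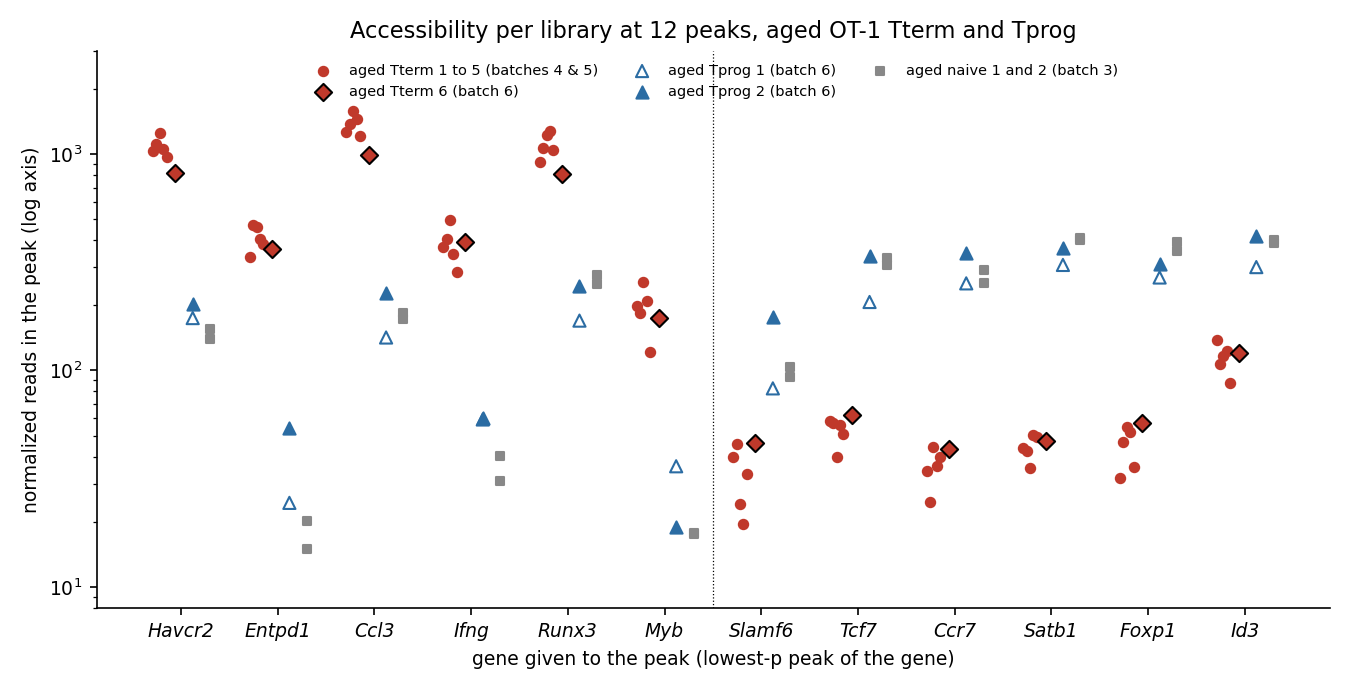
Normalized reads (log axis) in the lowest-p peak of 12 genes for each aged OT-1 library (red circles Tterm 1 to 5, red diamond Tterm 6, open and filled triangles Tprog 1 and 2) and for 2 aged naive libraries (grey squares). At each of the 12 peaks all 6 Tterm libraries lie on the same side of both Tprog libraries, and the Tterm 6 diamond, the only Tterm library of the Tprog batch, lies among or next to the other Tterm points.

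Genes of the transcription factors that hold the progenitor state had peaks that fell in Tterm at 9 of 12 members. Of 317 peaks near the 12 genes, 16 were higher and 44 lower (13.9%, against 3.39% of all peaks), and 3 and 24 in both fits. The 9 genes with lower peaks in both fits were Bach2, Foxp1, Id3, Klf2, Klf3, Lef1, Myb, Satb1 and Tcf7, and no peak near Bcl6, Foxo1 or Zeb1 was called in both. The median log2 difference over the list was -0.43, against 0.15 over all peaks, and -0.58 against 0.02 without Tprog 1. Relative to the median of all peaks, the medians of 10 of the 11 T cell lists kept their sign under 7 scalings and fits. The exception was the TNF superfamily.

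The Satb1 peak at chr17:51878992-51880899 held 35.5 to 50.3 reads in Tterm (median 45.5) and 307 and 368 in Tprog. Satb1 organizes chromatin in naive and memory T cells, and its peak fell by 2.81 on the log2 scale (SE 0.32, limma adjusted p = 3.13e-06). At Foxp1, a factor that holds T cells in quiescence, 12 of 79 peaks were lower, 8 of them in both fits. The leading Foxp1 peak, inside the gene at chr6:99485096-99486766, held 31.8 to 57.1 reads in Tterm and 269 and 312 in Tprog. Over the promoter of Id3, an inhibitor of E proteins, Tterm libraries held 87.9 to 138 reads and Tprog libraries 300.2 and 419.6, a log2 difference of -1.54 (SE 0.26, limma adjusted p = 2.12e-04). At all 3 genes every Tterm library was under both Tprog libraries, and the aged naive libraries were above both at Satb1 and Foxp1 and between them at Id3.

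Several genes of this list carried peaks that went the other way. With all 8 libraries, 6 genes had both higher and lower calls. Near Foxp1, 2 peaks were higher beside the 12 lower ones. Calls near Bach2 (3 higher, 1 lower) and Myb (4 higher, 1 lower) were mostly higher. A peak 8849 bp from Myb, a factor needed to keep the progenitor pool, held 121 to 256 reads in Tterm (median 190.4) and 36.1 and 19.0 in Tprog, at chr10:21115182-21116081. It was higher in Tterm by a log2 difference of 2.86 (SE 0.32, limma adjusted p = 2.85e-06), while another Myb peak was lower in both fits. A peak 52291 bp from Lef1, the partner of TCF-1, was likewise higher, with 733 to 1047 reads in Tterm and 129 and 287 in Tprog, at chr3:131056872-131058006. Lef1 had 2 peaks lower in both fits. The gene given to a peak is only the nearest protein-coding one, so such distal peaks need not act on it. That limit holds equally for distal peaks that go with their list. Examples are the leading peaks of Satb1 (45702 bp from the gene), Ccr7 (15580 bp) and Ccl3 (17556 bp). Those of Nt5e (52718 bp), Tigit (36726 bp) and Ctla4 (32911 bp) are others.

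Receptors and homing molecules of progenitor and memory cells also had more lower than higher peaks, but not at every gene. With all 8 libraries, Icos had 3 higher peaks and 0 lower, Cd28 had 4 and 2, and Cxcr3 had 1 and 0. Shares over all peaks tested were 11.3% higher and 3.39% lower. Of 175 peaks near 12 genes, 9 were higher and 32 lower (18.3%), and 1 and 25 in both fits, with lower peaks at 10 genes. Ccr7, the chemokine receptor that brings T cells into lymph nodes, had 7 lower peaks of 15 and no higher one. Its leading peak at chr11:99170657-99171760 held 24.7 to 44.2 reads in Tterm (median 38.1) and 253 and 349.8 in Tprog, so the groups did not overlap. The log2 difference was -2.84 (SE 0.36, limma adjusted p = 1.02e-05). At Cxcr5, the follicular chemokine receptor, 5 of 10 peaks were lower in both fits.

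At 1 named gene of that list the call came with the batch term. Inside Cd9, a tetraspanin gene, the Tterm libraries ranged from 132 to 457 reads with a median of 414, and Tprog 1 and 2 held 457 and 446. Only Tterm 6, the batch 6 library, was low, and the groups overlapped. The peak was called lower (log2 -1.32, limma adjusted p = 0.00163), but with no batch term its log2 difference was -0.41 and its adjusted p 0.440.

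Inhibitory receptors and the ectoenzymes that go with exhaustion had higher peaks in Tterm at 9 of 14 genes. Of their 134 peaks, 48 were higher (35.8%, against 11.3% of all peaks) and 1 lower, and 28 and 1 in both fits. The list's median was 0.84, and 0.53 without Tprog 1. Higher peaks were called in both fits at 9 genes (Cd244a, Ctla4, Entpd1, Havcr2, Lag3, Nt5e, Pdcd1, Tigit and Vsir). Havcr2 is the gate's own gene. The lower peak was at Cd101, and Cd160, Cd38, Cd200r1 and Btla had no peak called in both fits, although 2 of the 9 peaks near Cd38 were called higher with Tprog 1 included.

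Entpd1, which encodes CD39, the enzyme that breaks down extracellular ATP, had 11 higher peaks of 14, with 9 in both fits. Its leading peak, inside the gene at chr19:40691595-40692561, held 335 to 468 reads in Tterm (median 394) and 24.4 and 54.3 in Tprog. The groups did not overlap, with a log2 difference of 3.54 (SE 0.33, limma adjusted p = 5.14e-07) that came to 2.98 without Tprog 1. Nt5e (CD73), which acts on the product of CD39, had 422 to 856 reads in Tterm and 80.3 and 185 in Tprog. At Pdcd1, the gene of PD-1, a peak at chr1:94050983-94051596 held 204 to 291 reads in Tterm (median 234) and 69.8 and 62.9 in Tprog. Both subsets are known to express PD-1, and both aged Tprog libraries were above the aged naive ones, at 52.9 and 47.7. The Pdcd1 difference was 1.86 on the log2 scale (SE 0.28, limma adjusted p = 9.09e-05). Among the other inhibitory receptors, the leading peaks of Ctla4, Vsir (VISTA) and Tigit differed by 1.95, 2.24 and 2.00.

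Genes of killing and inflammatory signalling held the largest share of changed peaks of any of the 11 T cell lists. Of 123 peaks near 16 effector genes, 75 were higher (61.0%) and 0 lower, and 42 were higher in both fits, with a median log2 difference of 1.44 (0.99 without Tprog 1). Higher peaks in both fits were found at 10 genes, among them Ccl3, Ccl4, Ccl5, Fasl, Gzma, Gzmb, Gzmk, Ifng and Prf1. At Gzmc, Gzmm, Tnf, Serpinb9, Lamp1 and Nkg7 no peak was called in both.

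Ifng, the gene of interferon gamma, had 20 higher peaks of 34, with 13 in both fits. The leading one, 53345 bp from the gene at chr10:118385923-118387701, held 285 to 495 reads in Tterm (median 382) and 59.4 and 60.3 in Tprog. Here the Tprog libraries were nearly equal, and the log2 difference of 2.69 (SE 0.26, limma adjusted p = 7.13e-07) was 2.68 without Tprog 1. Ccl3, a chemokine that draws other immune cells, had a peak at chr11:83628406-83630287 with 989.9 to 1581 reads in Tterm and 142 and 228 in Tprog. Ccl3 and Ccl4 lie side by side on chromosome 11, so their peaks may serve either gene. At Gzmb (granzyme B) the leading peak held 142 to 216 reads in Tterm and 37.2 and 61.2 in Tprog, a log2 difference of 1.92 (SE 0.29, limma adjusted p = 7.84e-05). At Gzmk (granzyme K) Tterm held 336 to 463 reads and Tprog 118 and 194, again without overlap.

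**Figure D2:**
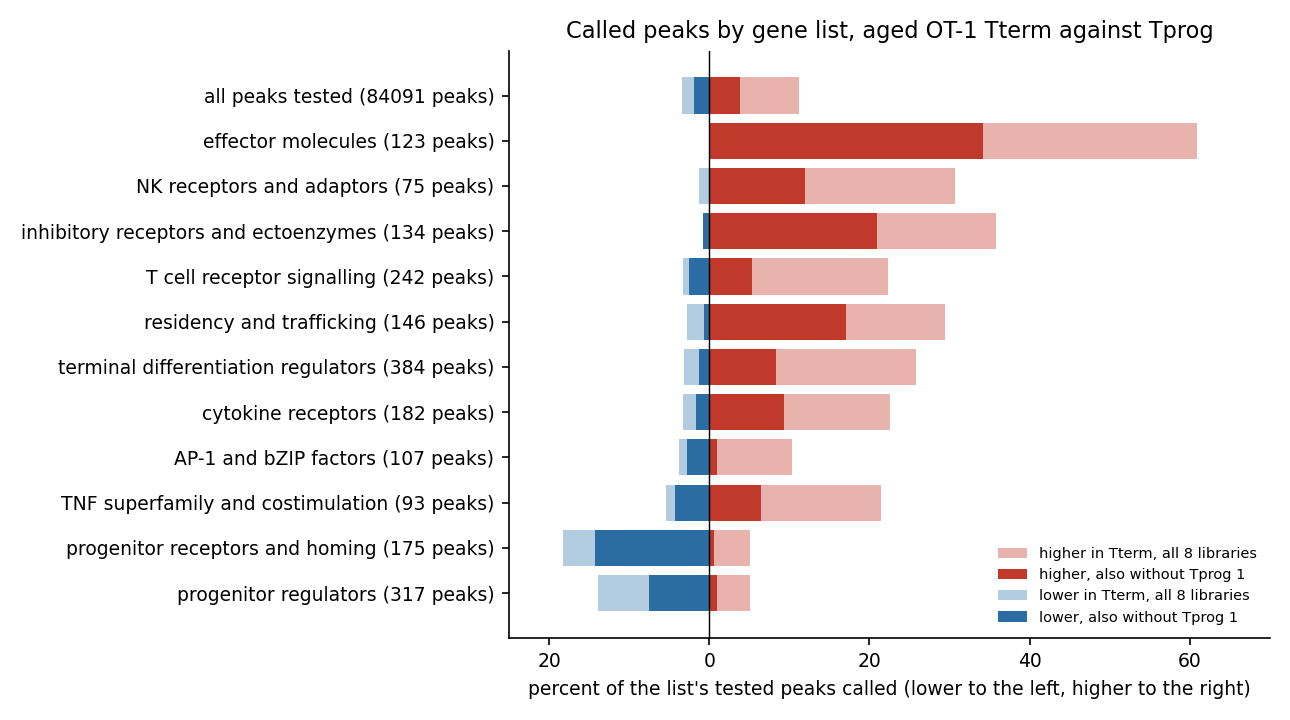
Share of each gene list's tested peaks that were called higher (right, red) or lower (left, blue) in aged OT-1 Tterm than in Tprog, with all 8 libraries (pale) and in calls also made without Tprog 1 (dark). The top bar is the share of all 84091 peaks, 11.3% higher and 3.39% lower; effector molecules reach 61.0% higher, and with all 8 libraries the 2 progenitor lists at the bottom are the T cell lists with more lower than higher calls, joined by AP-1 and bZIP factors (1 higher, 3 lower) in calls also made without Tprog 1.

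Among regulators of terminal differentiation 12 of 18 genes had higher peaks in both fits, and 4 (Eomes, Nfatc2, Prdm1 and Tox) had lower ones. Of 384 peaks, 99 were higher (25.8%) and 12 lower (3.12%), and 32 and 5 in both fits. Among all peaks tested 11.3% were higher and 3.39% lower, so the lower share of this list was near that of all peaks. Runx3, which sets the cytotoxic program of CD8+ cells, had 812 to 1272 reads in Tterm (median 1054) and 169.9 and 246 in Tprog at chr4:135168055-135169873. Its log2 difference was 2.44 (SE 0.27, limma adjusted p = 2.25e-06). Prdm1 (Blimp-1), a repressor of memory genes, had 12 higher peaks of 24 and 1 lower, with 253 to 469 reads in Tterm and 71.0 and 123 in Tprog at its leading peak. Peaks near Id2, Ikzf2, Ikzf3, Nfatc1, Tox2, Rbpj and Zeb2 were also higher in both fits.

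Tox encodes the factor that sets up the exhausted state in both subsets. Of its 45 peaks, 5 were higher and 4 lower, and 1 and 2 in both fits. The peak of lowest p, inside the gene at chr4:6969946-6971215, was lower in Tterm, with 20.8 to 33.1 reads in Tterm (median 24.9) and 118 and 89.6 in Tprog. Its log2 difference was -1.96 (SE 0.37, limma adjusted p = 6.94e-04), and the naive libraries held more than either group, 163 and 144. No peak near Nr4a1, Nr4a2, Nr4a3, Irf4 or Tbx21 was called in both fits, although 3 peaks near Tbx21 (T-bet) were called higher with Tprog 1 included.

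Peaks near genes of tissue residency, NK receptors and cytokine receptors were higher more often than peaks in general. Over all peaks tested, 11.3% were higher and 3.39% lower. Of 146 peaks near 12 genes of residency and trafficking, 43 were higher (29.5%) and 4 lower, and 25 and 1 in both fits. Ccr2, a chemokine receptor, had 258 to 358 reads in Tterm and 55.9 and 61.2 in Tprog at chr9:124098954-124100028, a log2 difference of 2.47 (SE 0.26, limma adjusted p = 1.33e-06). Cx3cr1, the fractalkine receptor, and Itga1, the collagen-binding integrin CD49a, both differed by 2.49 at their leading peaks. Of 75 peaks near NK receptors and their adaptors, 23 were higher (30.7%) and 1 lower, and 9 and 0 in both fits. Fcer1g, a signalling adaptor, held 223 to 294 reads in Tterm and 87.3 and 88.7 in Tprog, and Klrg1, an inhibitory receptor of effector cells, held 480.3 to 610.5 against 104 and 230.0. Neither overlapped between groups, and at Klrg1 the Tprog libraries differed from each other.

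Of 182 cytokine receptor peaks 41 were higher (22.5%) and 6 lower, and 17 and 3 in both fits. The lower share of this list was 3.30%, near the 3.39% of all peaks. Inside Il18rap, part of the interleukin-18 receptor, Tterm held 317 to 487 reads and Tprog 90.8 and 118. At Il2rb, the shared chain of the interleukin-2 and interleukin-15 receptors, the log2 difference was 1.82 (SE 0.32, limma adjusted p = 3.85e-04), and 1.16 without Tprog 1 (adjusted p = 0.0121). Tgfbr2, the receptor of the inhibitory cytokine TGF-beta, had a peak with 94.1 to 232 reads in Tterm and 30.3 and 26.7 in Tprog, and also a peak that was lower in both fits.

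Of 242 peaks near 16 T cell receptor signalling genes, 54 were higher (22.3%, against 11.3% of all peaks) and 8 lower (3.31%, near the 3.39% of all peaks). In both fits 13 were higher (5.37%, against 3.85%) and 6 lower (2.48%, against 1.85%). Ptpn22, a phosphatase that damps receptor signals, had 595 to 803 reads in Tterm (median 656) and 125 and 136 in Tprog inside the gene, a log2 difference of 2.48 (SE 0.26, limma adjusted p = 1.34e-06). A peak near Cblb, a ubiquitin ligase that also restrains signalling, was lower, with 8.81 to 13.3 reads in Tterm and 97.8 and 73.2 in Tprog. Other peaks near Cblb were higher in both fits. Lck, the first kinase of the pathway, had a peak inside the gene with 22.4 to 46.1 reads in Tterm and 108 and 111 in Tprog, which lost its call without Tterm 6 (log2 -1.10, adjusted p = 0.0569). The Trat1 promoter shown above, of a T cell receptor associated adaptor, held few reads in Tterm, 1.40 to 13.3 reads against 80.3 and 109 in Tprog and 139 and 94.1 in naive cells. The Trat1 log2 difference was -3.92 (SE 0.57, limma adjusted p = 4.56e-05).

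Genes of the TNF superfamily were split by member. The shares of all peaks to set beside theirs are 11.3% higher and 3.39% lower. Of 93 peaks, 20 were higher (21.5%) and 5 lower (5.38%), and 6 and 4 in both fits, and the list's median changed sign from 0.25 to -0.18 without Tprog 1. A peak 13584 bp from Cd70, the ligand of CD27, had 27.8 to 72.3 reads in Tterm and 206 and 215 in Tprog. The group means were 49.3 and 210 reads. The fitted log2 difference was -3.21 (SE 0.45, limma adjusted p = 3.08e-05). It includes the batch 6 term and is larger than these means give. The naive libraries held 13.4 and 7.19, so Tprog was the highest of the 3 aged groups there. Tnfrsf1b, which encodes TNF receptor 2, went the other way, with 227 to 397 reads in Tterm and 29.1 and 41.4 in Tprog inside the gene. Tnfrsf9 (4-1BB) had 4 higher peaks and 1 lower; the lower one, with 18.6 to 40.5 reads in Tterm and 159 and 209 in Tprog, had the lowest p.

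Of 107 peaks near AP-1 and bZIP factors, 11 were higher (10.3%, against 11.3% of all peaks) and 4 lower (3.74%, against 3.39%). In both fits 1 was higher (0.935%, against 3.85%) and 3 of the 107 were lower, against 1.85% of all peaks. The list's median ranged from -0.13 to 0.28 over the scalings. Near Jun, 3 peaks were lower in both fits, the leading one with 62.6 to 121 reads in Tterm and 161 and 188 in Tprog. Fosb had the only higher one, with 207 to 310.0 reads in Tterm and 80.3 and 66.3 in Tprog. At Bach1 (1.64) and Atf3 (1.07) the call was lost without Tprog 1, where the differences were 0.84 and 0.62 (limma adjusted p = 0.214 and 0.231).

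Markers of other cells were summed over the peaks within each gene body. The 7 melanocyte and melanoma genes summed to 1708 to 2230 reads in Tterm and to 1408 and 2158 in Tprog, and no peak of Tyr or Tyrp1 reached the test. For the 10 myeloid genes the sums were 1028 to 1183 against 1054 and 1130, and for the 8 B cell genes 1028 to 1216 against 985 and 1253. In these 3 lists Tterm overlapped the range of the Tprog libraries. The sum over the 5 CD4 and regulatory T cell genes was higher in every Tterm library, at 2188 to 3184 against 1232 and 2034. Peaks near Cd4 and Ikzf4 were called higher in both fits. The members did not move together. With all 8 libraries the median log2 difference was -0.45 at Cd4, -0.64 at Foxp3 and -0.80 at Cd40lg. It was 0.69 at Zbtb7b and 0.56 at Ikzf4. NK cell genes summed to 1571 to 2819 against 751 and 1693, with peaks near Klrb1c and Nfil3 called higher in both fits and no tested peak at Ncr1, and Klrb1c is also on the NK receptor list above. Fibroblast and endothelium genes summed to 1961 to 3091 against 1862 and 2011, with peaks near Pdgfrb and Pecam1 called higher in both fits. The 5 CD8 T cell genes summed to 6259 to 8323 in Tterm and to 4776 and 7678 in Tprog. The part of other cells in the results was not tested.

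The genes given the most changed peaks, by count and not by share, were Aopep, Dock10, Atxn1, Cmip, Ifng and Runx2 among higher peaks. Among lower peaks they were Foxp1, Cd83, Aff3, Asap1 and Trerf1. Over all peaks tested, 11.3% were higher and 3.39% lower. Dock10, Atxn1 and Runx2 had 21 higher peaks of 47, 20 of 61 and 20 of 56. Asap1 and Trerf1 had 10 lower peaks of 39 and 10 of 26. Ifng and Cmip (c-Maf inducing protein) were each given 20 higher peaks and 0 lower, of 34 and 72 tested, with 13 and 14 in both fits. The leading Cmip peak held 191 to 295 reads in Tterm and 32.6 and 31.0 in Tprog. Aopep, an aminopeptidase gene, had 22 higher peaks of 45, 10 in both fits, and Filip1 had 18 of 28, 13 in both. Among genes with lower peaks, Foxp1 led by count with 12 of 79, followed by Cd83 with 11 of 18 and Aff3 with 10 of 20. Cd83 encodes a surface protein of activated lymphocytes, and its leading peak had 97.1 to 194 reads in Tterm and 264 and 482 in Tprog. Asap1, a regulator of the cytoskeleton, had 8.38 to 24.0 reads in Tterm and 127 and 107 in Tprog at its leading peak, without overlap.

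Several of the largest differences came with a 0 in Tprog 1. Inside Upf1, a gene of RNA decay, Tterm libraries held 613 to 825 reads, Tprog 1 held 0 and Tprog 2 held 159. The log2 difference of 5.98 came to 2.32 without Tprog 1. Young Tprog held 14.5 and 25.9 reads there and aged naive cells 21.8 and 25.5, so Tprog 2 was above each of these. The Upf1 difference was 4.66 in young OT-1 cells and 2.64 in aged endogenous cells. Of the 54 peaks at 0 in Tprog 1 and at 30 or more in the other libraries, 53 were called higher. At Map3k8 the difference went from 4.72 to 1.08 and its call was lost (limma adjusted p = 0.361). Other peaks were low in both Tprog libraries. One 41543 bp from Mepe had 101 to 205 reads in Tterm and 3.49 and 14.6 in Tprog, and one inside Asic2 had 18.8 to 103 in Tterm and 0 in both Tprog libraries. Against a floor of 3 reads over both Tprog libraries, the Asic2 peak was at least 32.1-fold higher. By the same floor a peak with no coding gene within 100000 bp, at chr7:136255448-136256130, was at least 68.3-fold higher. In the other direction, a peak inside Dclk1 held 0.866 to 6.94 reads in Tterm and 55.9 and 63.8 in Tprog (log2 -4.31, SE 0.75, limma adjusted p = 3.20e-04).

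Tterm 6 is the only Tterm library from the batch of the Tprog libraries, so it gives the comparison within a batch. It lay above both Tprog libraries at 9046 of the 9477 higher peaks (95.5%, against 33.5% of all peaks tested) and below both at 2840 of the 2850 lower peaks (99.6%, against 28.7%). For peaks called in both fits the counts were 3202 of 3237 and 1554 of 1559. The other 5 Tterm libraries passed both Tprog libraries at 81.6 to 93.0% of the higher and 85.0 to 90.7% of the lower peaks. Tterm 6 took part in those calls, so the calls made without it were also read. It then lay above both Tprog libraries at 7307 of 8561 higher peaks (85.4%) and below both at 2330 of 2555 lower peaks (91.2%). The Tprog libraries remain part of these calls, and a test within batch 6 alone called 20 peaks higher and 4 lower.

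**Figure D3:**
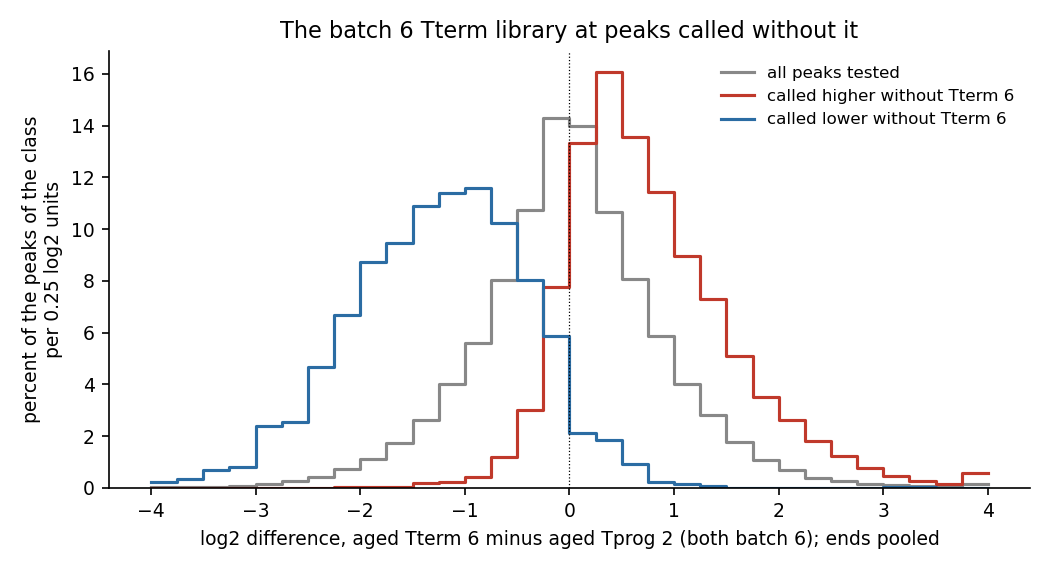
Log2 difference between Tterm 6 and Tprog 2, both of batch 6, at peaks called higher (red) or lower (blue) in a fit without Tterm 6, and at all peaks tested (grey), as a percent of each class per bin. The red curve lies mostly right of 0 (median 0.63) and the blue mostly left of it (median -1.20).

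At the named genes, Tterm 6 was beyond both Tprog libraries at 111 of 119 peaks, and the other 8 were named because it was not. The named peaks were chosen largely by low p in a fit that includes Tterm 6. Those of the largest differences were also required not to overlap between groups. The 111 therefore follow in part from that choice. Taken against Tprog 2, Tterm 6 differed by a log2 of 2.00 at Havcr2, 2.72 at Entpd1, 2.68 at Ifng, 2.11 at Ccl3 and 1.72 at Runx3. The differences were -2.43 at Tcf7, -2.99 at Ccr7, -2.93 at Satb1, -2.43 at Foxp1 and -2.79 at Cd70. At each of these 10 peaks the direction within batch 6 was that of all libraries. Smaller within the batch were Bhlhe40 (0.95 against 1.92 in the fit), Klrc1 (0.70 against 1.65) and Il2rb (0.83 against 1.82).

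A total of 441 called peaks did not hold against Tterm 6, 431 of them called higher and 10 called lower. At all 441 Tterm 6 lay between Tprog 1 and Tprog 2, and 40 of them were also called without Tprog 1. One example is a peak 18770 bp from Oscar, with 74.7 to 236 reads in Tterm, 74.7 of them in Tterm 6, and 0 and 93.1 in Tprog. Its log2 difference of 3.85 came to 0.57 without Tprog 1 (limma adjusted p = 0.669).

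The aged mice's own tumour T cells, sorted by the same gates and sequenced in other batches, gave a comparison in separate libraries. There, 4843 of 71756 peaks were higher in Tterm (6.75%) and 3856 were lower (5.37%). Of the OT-1 peaks called higher in both fits, 3039 overlapped an endogenous peak and 93.5% of those had a higher mean in endogenous Tterm. Of those called lower in both fits, 1495 overlapped one and 93.6% were lower, against 51.7% higher and 48.3% lower over all 63942 matched peaks. For all calls, including those that rest on Tprog 1, the shares were 79.4% and 90.9%. Peaks called in the same direction in both tables made up 30.5% of the higher and 44.4% of the lower OT-1 lists, and 58.9% and 32.7% of the endogenous lists. The leading peaks of Ccr7, Tcf7, Foxp1, Entpd1 and Ccl3 were called in both, with endogenous differences of -3.10, -2.20, -2.33, 1.77 and 2.07. Those of Ifng, Gzmb and Tigit did not pass in endogenous cells, where they differed by 0.51, 0.50 and -0.12 (limma adjusted p = 0.129, 0.132 and 0.808).

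**Figure D4:**
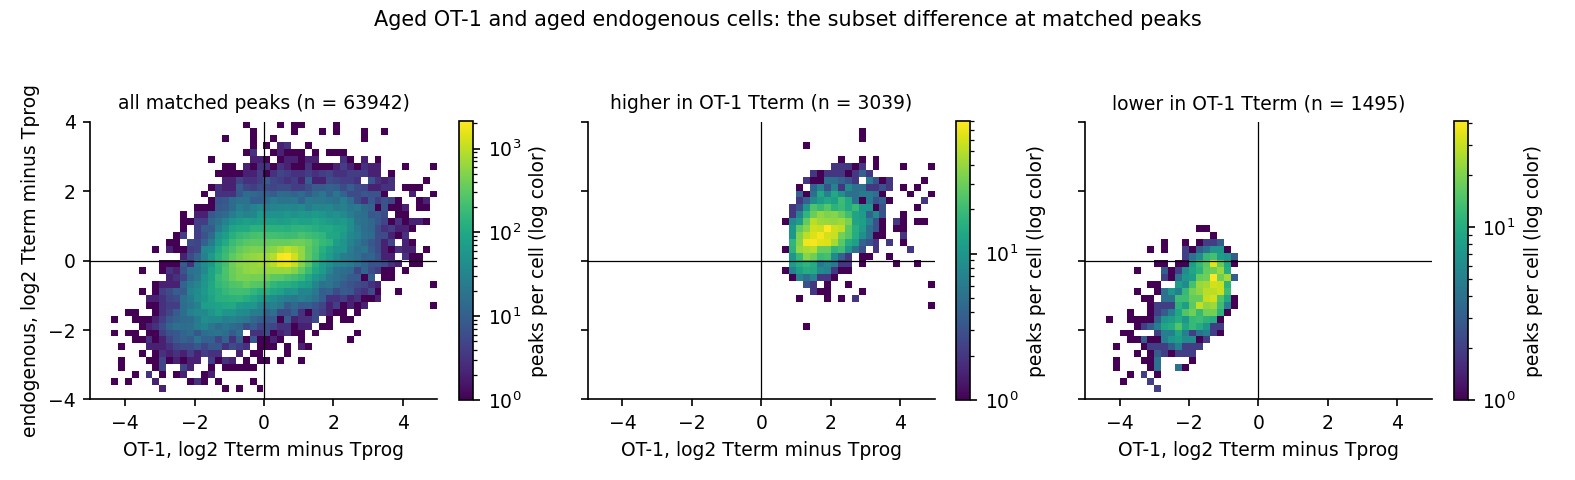
Log2 difference between Tterm and Tprog in aged OT-1 cells (x axis) and aged endogenous cells (y axis) at matched peaks, as counts per cell of the grid on a log color scale, for all 63942 matched peaks, the 3039 higher in OT-1 Tterm in both fits and the 1495 lower. Most of the higher peaks also lie above 0 on the y axis (93.5%) and most of the lower peaks under 0 (93.6%).

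In young OT-1 cells, fitted in the same model, the difference between Tterm and Tprog had the same sign at 11016 of the 12327 aged calls (89.4%) and at 4592 of the 4796 made in both fits (95.7%), against 69.3% of all peaks. A test of the difference between ages called 12 peaks (0.0143%), 11 with a more positive difference in aged cells and 1 with a more negative one. All 12 were also called without Tprog 1. At an unadjusted p under 0.05 there were 8088 peaks, and edgeR called 41 and DESeq2 344.

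At the 11 peaks the aged Tprog libraries held fewer reads than the Tterm libraries of both ages and than young Tprog. At Srxn1, which encodes an enzyme that repairs oxidized peroxiredoxins, a peak 3156 bp from the gene held 356 to 616 reads in aged Tterm and 53.5 and 65.5 in aged Tprog. Young Tterm held 299 to 499.8 and young Tprog 249.9 and 282. The difference between subsets was 3.11 in aged and 0.58 in young cells. At Map3k1, a kinase upstream of JNK, aged Tprog held 81.5 and 197 reads and young Tprog 718 and 693, within the range of young Tterm (598 to 1214). A peak near Il10, the gene of interleukin-10, held 156 to 261 reads in aged Tterm, 40.7 and 36.2 in aged Tprog and 173 and 154 in young Tprog. The exception was Tenm4, where aged Tterm was the low group, at 22.4 to 86.2 reads with a median of 76.9. The 22.4 was in Tterm 6, the batch 6 library. Aged Tprog held 161 and 258 reads at Tenm4, and the fitted aged difference, after the batch 6 term, was -2.81. Aged Tprog is of batch 6 and young Tprog of batches 4 & 5, so age and batch of the Tprog libraries cannot be told apart at these peaks except through the Tterm libraries, and without Tterm 2 or Tterm 4 limma called 0 peaks (7515 and 7815 at an unadjusted p under 0.05).

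**Figure D5:**
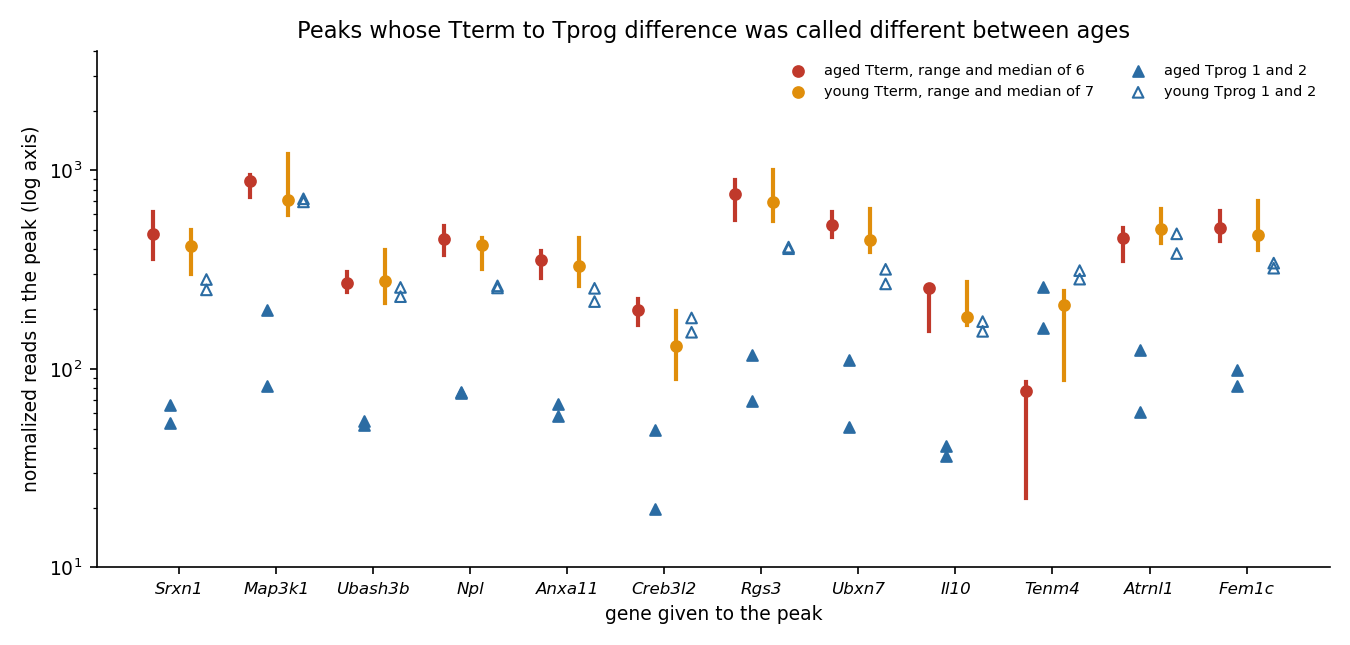
Normalized reads (log axis) at the 12 peaks whose difference between Tterm and Tprog was called different between ages: range and median of 6 aged (red) and 7 young (orange) Tterm libraries, and each aged (filled) and young (open) Tprog library. At 11 of the 12 the filled triangles lie under the other groups, as at Srxn1, where aged Tprog held 53.5 and 65.5 reads and young Tprog 249.9 and 282.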

How the data were processed

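The authors deposited normalized read signal per peak, 1 table for OT-1 and naive libraries (169323 peaks, 21 libraries) and 1 for endogenous cells (73610 peaks, 17 libraries). Per the submitters' processing notes, Bowtie2 2.2.9, SAMtools 1.3.1, Picard 2.8.0, MACS2 2.1.1 and DESeq2 1.28.1 were used with mm10. The deposited signal is reads divided by a size factor: whole reads were recovered for 100% of values, within a tolerance of 0.01, at 6802732 to 27724769 reads in peaks per aged OT-1 library. The labels do not say which pools came from separate animals, so a p-value covers only the variation among these libraries, which may be technical.

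Peaks with a mean of 10 or more (84091) were tested with limma 3.58.1 (R 4.3.3) on log2(signal + 1), which understates changes of low peaks, over the table's 6 groups with a batch 6 term and Benjamini-Hochberg adjustment. edgeR 4.0.16 and DESeq2 1.42.0 were run on recovered reads as alternatives. The limma method was tested on simulated data with known changes. Those data held no batch shift and no library set apart like Tprog 1, so they cannot vouch for the calls made here. Endogenous peaks were tested apart, and peaks matched by 1 base of overlap.

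Each peak took the name of the closest coding gene body, if within 100000 bp (RefSeq, GRCm38.p6), because strand was not given for all genes. Named peaks were the sort markers, the lowest-p peak of up to 6 genes per list and of 10 genes always named, the largest differences, the genes with most calls, calls not shared by Tterm 6, and the lowest p for age. The members and lists were chosen with earlier results of these data known. Printed promoters were of named genes with a called peak over them. One result on a named gene is not reported here.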

Additional observations from a re-analysis of the deposited data

Results flagged for a closer look

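At 12 peaks the difference between Tterm and Tprog itself differed between aged and young OT-1 cells (limma, adjusted p under 0.05 for the difference of differences). The aged difference was more positive by a log2 of 2.53 at Srxn1, 2.87 at Map3k1, 2.41 at Ubash3b, 2.08 at Npl, 2.17 at Anxa11, 3.06 at Creb3l2, 2.37 at Rgs3, 2.37 at Ubxn7, 2.50 at Il10, 2.21 at Atrnl1 and 2.06 at Fem1c. It was more negative, by -2.41, at Tenm4. Adjusted p ran from 0.0286 to 0.0387, and all 12 were called without Tprog 1. The batch of the aged Tprog libraries differs from that of the young ones.

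At 4 of the 119 named peaks a single Tterm library lay far above the other 5. Tterm 3 held 103 normalized reads at Asic2, where the next library had 46.4, 423 at Dock10 (next 319) and 111 at one of the peaks of Nfatc1 (next 54.7). Tterm 4 held 135 at Nol6, where the next had 54.6. Chance alone marks about 1 in 20 groups in this way.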

How the results depend on the processing

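Higher, lower and age counts (9477, 2850 and 12 as reported) ranged over the left-out libraries from 4156 to 26162, from 2555 to 4092 and from 0 to 12239; the highest values are those without Tprog 2, where Tprog 1 alone stands for Tprog, and the age count was 0 without Tterm 2 or 4, 4 without Tterm 3, 80 without Tprog 1 and 154 without Tterm 6. edgeR gave 5812, 5367 and 41; DESeq2 8831, 5508 and 344; equal totals 5745, 6047 and 128; quantile scaling 7124, 5170 and 212. With the compared groups alone 144 and 59 peaks were called, and with batch 6 only 20 and 4. Age counts were 30 with a mean of 30 or more, 62 with no batch term, and 23 and 19 with pseudocounts of 0.5 and 5. Added after seeing the data, array weights gave 1689, 172 and 0 (4468 age peaks at an unadjusted p under 0.05), and equal totals without Tprog 1 gave 4208, 3580 and 428. With the replicate number as a block the counts were 5642, 2075 and 21. Only numbers 1 and 2 are shared, and their batches differ. The deviations correlated at 0.201 and 0.137. With 2 Tprog libraries the deviations of 1 mirror those of the other, so these values cannot say whether the numbers pair the samples. The count shared by Tterm 6 (11886) was 4756 for calls also made without Tprog 1, and the share with the endogenous direction (81.9%) was 99.2% of peaks called in both tables and 93.5% of calls also made without Tprog 1. No named peak changed direction under the alternatives run; of 119, 112 lost their call with batch 6 only, 95 with the compared groups alone, 41 with array weights, 20 without Tprog 1, 10 with edgeR and 8 with DESeq2. The cause of these changes was not tested. The depth of Tprog 1, the lowest, limits what low peaks can show.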

Other observations

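Naive CD8+ T cells from spleens of aged mice, of another batch, lay differently beside the 2 kinds of changed peak. At peaks called higher in Tterm with and without Tprog 1, the naive mean was above the Tterm mean at 16.7% and above the Tprog mean at 52.7%, against 52.7% and 57.3% of all peaks tested. At peaks called lower in both, the naive mean was above the Tterm mean at 54.5% and above the Tprog mean at 38.9%. Lower peaks thus included some that were open in naive cells, such as those of Aff3 (113 and 132 reads in naive, 101 and 96.5 in Tprog, 11.5 to 29.2 in Tterm). Others were low in naive cells, such as the one inside Trerf1 (8.40 and 14.4 in naive, 105 and 117 in Tprog, 24.9 to 62.6 in Tterm).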
